A study of Homo sapiens with 9 samples.

Results

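Chromosome 16 was examined as a unit in LNCaP cells, an established human prostate cancer cell line, in which the long noncoding RNA gene *EPCART* had been deleted on another chromosome. Of the genes in the normalized count table, 852 lie on chromosome 16 in the GENCODE annotation (GRCh38), and the 791 of them whose normalized count averaged at least 1 over the 9 libraries are described here. All fits used 17530 genes with such a mean. The 61 remaining chromosome 16 genes were below it, and 22 of these were at 0 in every library. The lowest member was *CDH11*, with a mean of 1.02, and the highest gene left out was *TPPP3*, with a mean of 0.975. The annotation lists 790 members as protein-coding and 1 as a long noncoding RNA. The arms were parted in the widest stretch without a gene, which left 443 members on the p arm and 348 on the q arm. Chromosome 16 was selected on its measured values in the comparison of the deletion clones with WT, since its genes were lower there as a group. All values of that comparison are therefore a description, without a test. The comparison of del-4 with del-56 was not used in the choice and is tested gene by gene.

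RNA-seq was performed on del-4 and del-56, the *EPCART*-deletion clones (genotype *EPCART* knockout), which lack the promoter and the first exons of the gene, and on the WT clone (genotype *EPCART* wild-type). All of them were made with CRISPR-Cas9, and the 48 h of culture in RPMI medium with serum was common to them. Each genotype name stands for 1 clone, the WT clone is shared by both comparisons, and each clone gave 3 libraries. The study's methods call these biological replicates, without saying how the cultures were separated, so p-values measure the spread between cultures of single clones. An effect of the deletion cannot be told apart from any other difference between single clones. *EPCART* itself was not analysed here.

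The libraries held 91074556 to 118877134 reads on genes. The LNCaP marker *KLK3*, the gene of prostate-specific antigen, was high in all of them (lowest 35098, highest 59860 normalized counts). The leukocyte marker *PTPRC* and the basal marker *KRT5* did not exceed 3.87 and 0.966, and *PECAM1*, *TP63* and *CHGA* did not exceed 14.9. The fibroblast marker *COL1A1* was present in every library (937 to 1359).

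Genes on one chromosome have no common function. Chromosome 16 is a small, gene-rich chromosome that carries the metallothionein cluster, whose products bind zinc and copper and whose transcription is induced by metals through metal response elements. It also carries the alpha-globin cluster, E-cadherin (*CDH1*) and other cadherins, and single subunits of many large complexes whose other subunits are encoded elsewhere.

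The share of reads that fell on chromosome 16 genes was lower in both deletion clones. It was 4.73%, 4.87% and 4.85% in the WT libraries, 3.86%, 3.83% and 3.83% in del-4, with 3.96%, 3.85% and 3.86% in del-56. All 6 deletion libraries lay below the 3 WT libraries, and the deletion clones overlapped each other. The mean share was 4.82% ± 0.0732 (SD, n = 3) in WT, 3.84% ± 0.0187 for del-4 and 3.89% ± 0.0573 for del-56. Both arms took part. The p arm share was 2.94% in WT, 2.40% for del-4 and 2.37% for del-56, and the q arm share 1.87%, 1.44% and 1.52%.

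**Figure D1:**
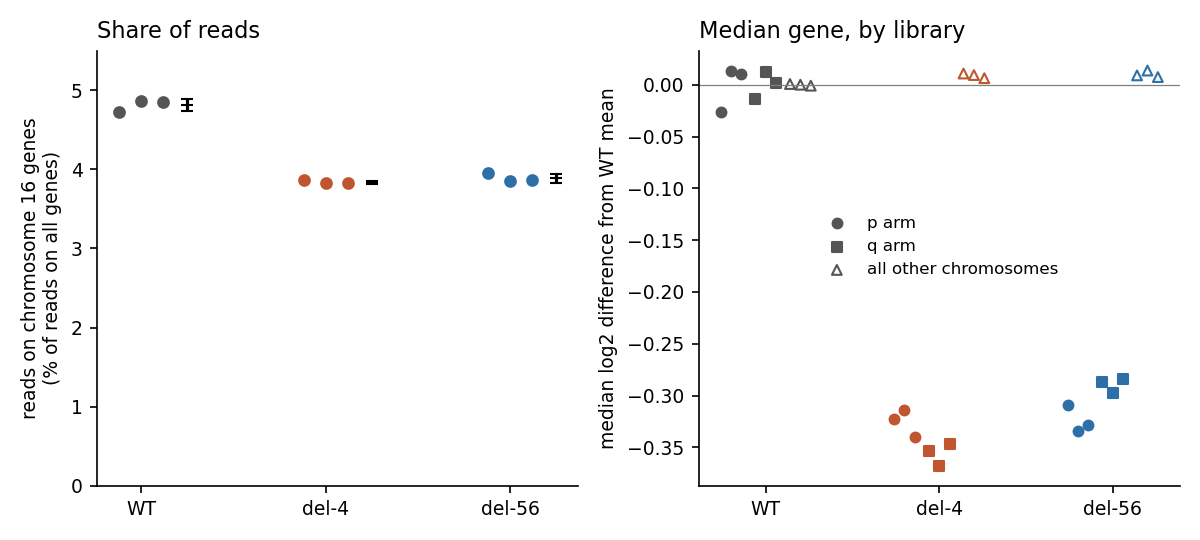
Left, share of reads on chromosome 16 genes in each library (%, points) with the mean and SD of each clone (bars). Right, the median over genes of the log2 difference of each library from the WT mean, for the p arm, the q arm and the genes of all other chromosomes pooled. The deletion libraries lie between 3.83% and 3.96% and the WT libraries between 4.73% and 4.87%. The pooled median of all other genes stays near 0 in every library, which does not show each other chromosome by itself.

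The median member had a log2 fold change (limma, on log2 of the normalized count plus 1) of -0.34 for del-4 and -0.31 for del-56, which corresponds to 0.788 and 0.805 of the WT level. The interquartile range was -0.52 to -0.20 for del-4 and -0.47 to -0.16 for del-56. In del-4, 708 of 791 members were below WT, and in del-56, 687. The median of all 16739 other genes was 0.0066 in del-4 versus 0.0092 in del-56. Chromosomes 2 and 13 were also low, with medians of -0.15 and -0.17 in del-4 and -0.16 in both cases in del-56, each less far from 0 than chromosome 16. Library by library, the chromosome 16 median lay between -0.02 and 0.013 in WT, between -0.342 and -0.34 for del-4, and between -0.314 and -0.298 for del-56.

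Most members were called lower, at a Benjamini-Hochberg adjusted p under 0.05 in limma. In del-4, 525 members (66.4%) were called lower against 18.8% of all genes, and 14 (1.77%) were called higher against 18.9%. In del-56, 506 members (64.0%) were called lower against 19.4% of all genes, and 18 (2.28%) were called higher against 18.2%. All 6 deletion libraries were below all 3 WT libraries for 495 members (62.6%), where 16.7% of all genes had this order, and above them for 12 members (1.52%), where 15.8% did. These shares describe the pattern by which the chromosome was chosen.

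Lower levels were found along the whole chromosome. In bins of 5 Mb by gene start, the 16 bins with more than 2 members all had a negative median in both clones. In del-4 the bin medians of these ran from -0.24 (19 members from 50 Mb) to -0.54 (3 members from 90 Mb), and among bins of at least 10 members the lowest was -0.51 (55 members from 85 Mb). In del-56 they ran from -0.13 (34 members from 80 Mb) to -0.39 (16 members from 45 Mb). Only the bin from 60 Mb, with *CDH8* and *CDH11*, had a positive median, in del-4. The first 5 Mb of the p arm, the densest bin with 183 members, had medians of -0.34 and -0.36.

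**Figure D2:**
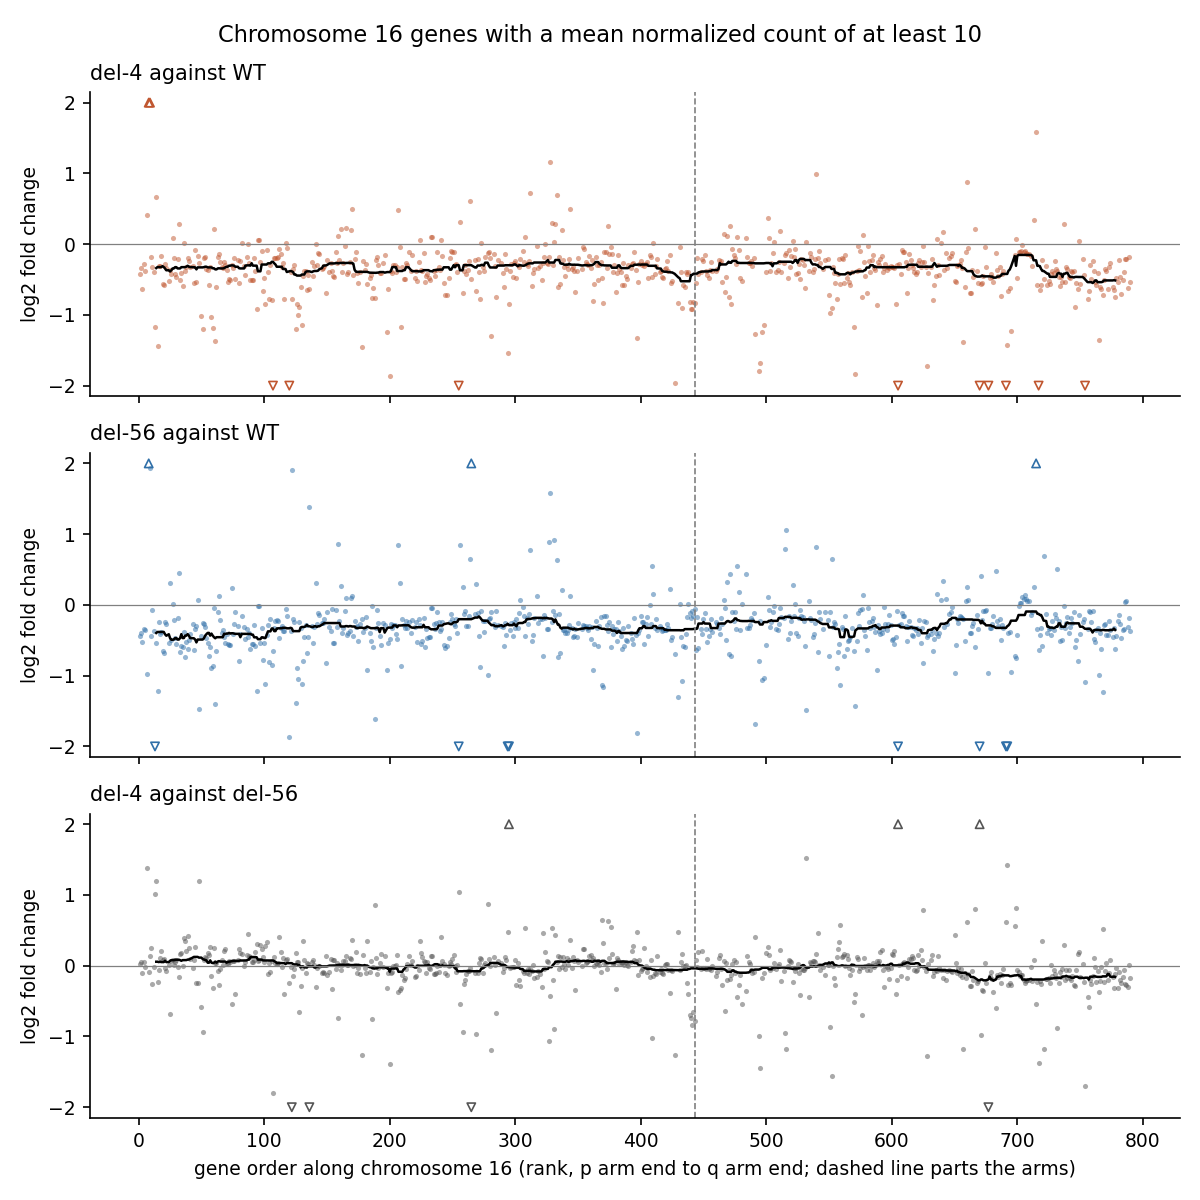
Log2 fold change of the 723 chromosome 16 genes whose normalized count averaged at least 10, in order along the chromosome (x axis, rank), for del-4 against WT, del-56 against WT and del-4 against del-56. The black line is the median of 25 neighbouring genes, the dashed line parts the arms and open triangles mark genes beyond 2. The running median stays between -0.55 and -0.15 for del-4 and between -0.53 and -0.09 for del-56.

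By the running median, a stretch on the q arm near 81 Mb came closest to the WT level in both clones. This did not hold for the 5 Mb bins in del-4, where the bins from 75 and 80 Mb had medians of -0.44 and -0.37. The highest running median over 25 genes was -0.15 in del-4, in the window from *GABARAPL2* to *HSD17B2*, and -0.09 in del-56, in the window from *MON1B* to *NECAB2*. Both windows hold the neighbours *CMC2*, *CENPN*, *ATMIN* and *GCSH*, which were picked out after their values were seen. *CMC2*, a mitochondrial protein gene, had 16945, 17310 and 16063 normalized counts in WT, 15914, 15717 and 15186 in del-4, with 15966, 18160 and 17157 in del-56. *ATMIN*, which encodes a zinc finger protein of the DNA damage response, had 10232, 10670 and 10763 in WT, 9887, 9854 and 9711 in del-4, with 11197, 11948 and 11641 in del-56. *GCSH*, of the glycine cleavage system, had 16892 to 17075 in WT, 14850 to 16120 in del-4 versus 17161 to 18252 in del-56. For *ATMIN* and *GCSH* every del-4 library lay below WT and every del-56 library above it, and for *CMC2* the del-56 and WT libraries overlapped. Several of these genes overlap each other or a readthrough gene in the annotation, so some reads may have been counted for more than 1 of them. *MON1B* and *MPHOSPH6* lie further out on either side, with other members in between, and both were lower. *MON1B* (5784, 6158 and 5988 in WT) had 3569 to 3868 in del-4 versus 4377 to 4621 in del-56. *MPHOSPH6* (5399 to 5865 in WT) had 3572 to 3870 and 4232 to 4586. They do not mark where the stretch ends.

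The deletion clones differed from each other on the outer q arm. Single genes were tested for a difference between these clones, while arms and bins were only counted, without a test of position. Over all members the median log2 fold change of del-4 against del-56 was -0.024. By limma with Benjamini-Hochberg adjustment over all genes, 82 members (10.4%) were lower in del-4 than del-56, where 7.18% of all genes were, and 49 (6.19%) were higher, where 8.64% were. On the q arm, 56 members were lower in del-4 and 15 higher. On the p arm, 26 were lower and 34 higher, and this order depended on the settings. It became 42 lower and 23 higher with rescaling to the same total, and it was 15 to 13 when del-4 replicate 1 was left out, 17 to 12 when del-4 replicate 3 was, 16 to 16 when del-56 replicate 2 was, and 16 to 11 when del-56 replicate 3 was. The q arm calls lay mostly beyond 70 Mb. From 70 to 75 Mb, 9 of 45 members were lower in del-4 and 1 higher, from 75 to 80 Mb 6 of 26 lower and 2 higher, from 80 to 85 Mb 15 of 34 (44.1%) lower and none higher, and from 85 to 90 Mb 19 of 55 (34.5%) lower and 1 higher. The bin medians of this difference were -0.09, -0.15, -0.20 and -0.16 from 70 Mb outward.

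Library medians are given for the bins from 80 and 85 Mb, which had the most calls lower in del-4. They come from the same libraries as those calls, so they describe the difference and add no separate support. For the 34 members from 80 to 85 Mb, the median log2 difference from the WT mean was -0.35, -0.33 and -0.29 in the del-4 libraries and -0.08, -0.15 and -0.15 in the del-56 libraries. For the 55 members from 85 to 90 Mb it was -0.45, -0.51 and -0.50 for del-4 and -0.29, -0.37 and -0.30 for del-56. The clones did not overlap in either bin. In the first 5 Mb of the p arm the order was the other one, with -0.33, -0.32 and -0.35 for del-4 and -0.34, -0.38 and -0.38 for del-56, and the clones overlapped. There, 22 of 183 members were higher in del-4 and 7 lower. With rescaling to the same total per library, these became 15 and 12. The 22 became 5 without del-4 replicate 1 or 3 and 8 without del-56 replicate 2. Without del-56 replicate 3, 4 were higher and 4 lower. With the same rescaling, the 82 lower and 49 higher members became 112 and 31. The counts also fell when single libraries were left out. Without del-4 replicate 1, 44 members were lower and 18 higher, without del-4 replicate 3, 43 and 17, without del-56 replicate 2, 48 and 28, and without del-56 replicate 3, 40 and 20. From 85 to 90 Mb, between 4 and 11 members were lower with any of the 6 libraries left out, and from 80 to 85 Mb between 8 and 15.

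The lower level was of similar size in all classes of expression in del-56. When members were put into 4 equal classes by their mean normalized count per kb of exon, the median log2 fold changes from the lowest to the highest class were -0.31, -0.31, -0.31 and -0.32 in del-56, and -0.49, -0.37, -0.34 and -0.30 in del-4. The spread was much larger in the lowest class, where the SD over genes was 1.03 in del-4 versus 1.19 in del-56. In the highest class, 95.5% of members were below WT in del-4, against 74.2% in the lowest. Spearman's correlation of fold change with level was 0.17 for del-4 and -0.02 for del-56, over 791 genes that share their libraries.

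**Figure D3:**
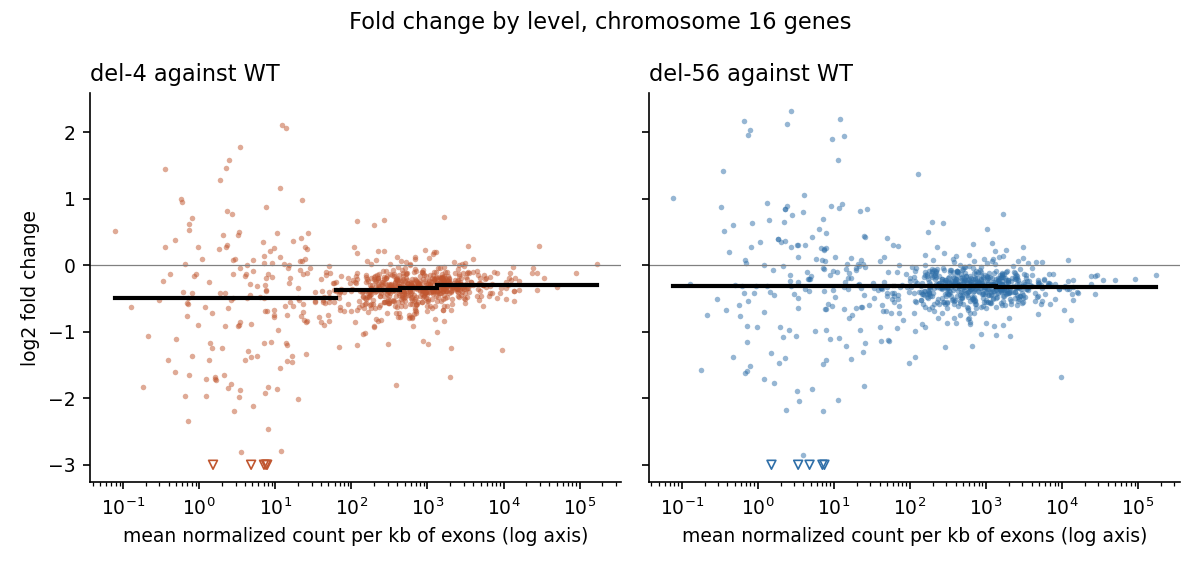
Log2 fold change of each chromosome 16 gene against its mean normalized count per kb of exon (log axis), for del-4 and del-56 against WT. Black bars are the medians of the 4 level classes, and open triangles mark genes below -3. The median of every class lies below 0, and the cloud is widest among the lowest genes. In the lowest class, 25.8% of members in del-4 and 33.8% in del-56 were not below WT.

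Of the metallothioneins of the q arm, *MT2A*, *MT1X* and *MT1F* were below the common level of the chromosome in both clones and *MT1G* in del-4, whereas the 4 others had few reads. These small cysteine-rich proteins buffer zinc and copper, and their promoters carry metal response elements. The promoters of *MT2A* and *MT1X*, the members of the list with the highest counts, and of *MT1H*, a neighbour that was near 0 in these cells, are shown to compare them. Each is the 250 bases before the gene start in RefSeq (GRCh38.p14), 5′ to 3′, and capitals mark matches to TGCACNC or TGCGCNC, the core of the metal response element, on either strand, with matches that overlap merged.

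MT2A, chr16:56608334-56608583, plus strand: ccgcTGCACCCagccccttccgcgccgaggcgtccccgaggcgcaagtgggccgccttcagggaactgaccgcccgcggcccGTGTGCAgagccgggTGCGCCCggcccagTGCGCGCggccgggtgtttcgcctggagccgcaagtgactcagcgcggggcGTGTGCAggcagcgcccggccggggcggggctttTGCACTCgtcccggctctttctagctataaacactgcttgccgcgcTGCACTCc
MT1X, chr16:56682220-56682469, plus strand: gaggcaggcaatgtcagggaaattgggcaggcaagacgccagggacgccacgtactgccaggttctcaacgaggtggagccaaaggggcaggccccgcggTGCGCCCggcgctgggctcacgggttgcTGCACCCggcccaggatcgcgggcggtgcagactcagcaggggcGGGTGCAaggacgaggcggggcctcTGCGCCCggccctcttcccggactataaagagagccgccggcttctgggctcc
MT1H, chr16:56669564-56669813, plus strand: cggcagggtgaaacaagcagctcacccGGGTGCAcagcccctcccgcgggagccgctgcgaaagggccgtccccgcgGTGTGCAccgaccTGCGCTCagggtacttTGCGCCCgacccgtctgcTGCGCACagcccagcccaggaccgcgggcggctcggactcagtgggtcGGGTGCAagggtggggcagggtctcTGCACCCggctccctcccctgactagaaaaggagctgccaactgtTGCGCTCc

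The *MT2A* window held 7 matches, the *MT1X* window 4 and the *MT1H* window 8, while that of *MT1B*, which was also near 0, held 3. Of 35116 RefSeq promoters of the same length, 24.8% held at least 1 match, 1.58% at least 3 and 0.12% at least 5. Of the 762 members with a promoter in the table, 34.8% held at least 1 and 0.394% at least 5. A match is a description of the letters only.

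*MT2A* (positions 56608584 to 56609497) had 13640, 16284 and 15802 normalized counts in WT, 6955, 5938 and 6016 in del-4, with 4869, 4564 and 4746 in del-56. The 3 clones did not overlap, and the WT mean was 15242 ± 1408 (SD, n = 3), with del-4 at 41.4% and del-56 at 31.0% of it. *MT1X* had 5017, 5822 and 6045 in WT, 2542, 2339 and 2246 in del-4, with 2753, 2738 and 2578 in del-56. Both deletion clones were below WT, at 42.2% and 47.8% of its mean, and they differed little from each other (log2 0.18 lower in del-4, adjusted p = 0.0686 in limma).

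*MT1G* and *MT1F* set the deletion clones apart. *MT1G* had 1765, 2248 and 2161 in WT, 674, 629 and 619 in del-4, with 1794, 1771 and 1688 in del-56. The del-56 libraries reached the lowest WT library, and the del-4 libraries lay far below both, with a log2 fold change of del-4 against del-56 of -1.45 (SE 0.063, adjusted p = 9.37e-06, limma). *MT1F* had 1032, 1210 and 1205 in WT, 376, 336 and 283 in del-4, with 682, 631 and 667 in del-56. Here del-56 lay between the other clones, and the difference of del-4 from del-56 was -0.9999 (SE 0.12, adjusted p = 0.00125, limma). For *MT2A* the difference had the other sign, 0.41 (SE 0.062, adjusted p = 0.00385, limma).

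The metallothioneins that were near the floor showed no clear order. *MT3*, which is known from the brain, had 9.65 to 50.9 in WT, 19.2 to 26.1 in del-4 versus 12.1 to 38.2 in del-56. *MT1H*, *MT1A* and *MT1B* did not exceed 5.02 in any library. *MT1E*, *MT1M* and *MT4* were not among the members. Of the 8 measured metallothioneins, 7 were below WT in each clone, and 4 of 8 were called lower for del-4 and 3 (37.5%) for del-56, against 66.4% and 64.0% of all members. The list median was -1.06 for del-4 and -0.34 for del-56. The genes are close copies of each other, and reads shared between them may have been counted for the wrong gene.

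**Figure D4:**
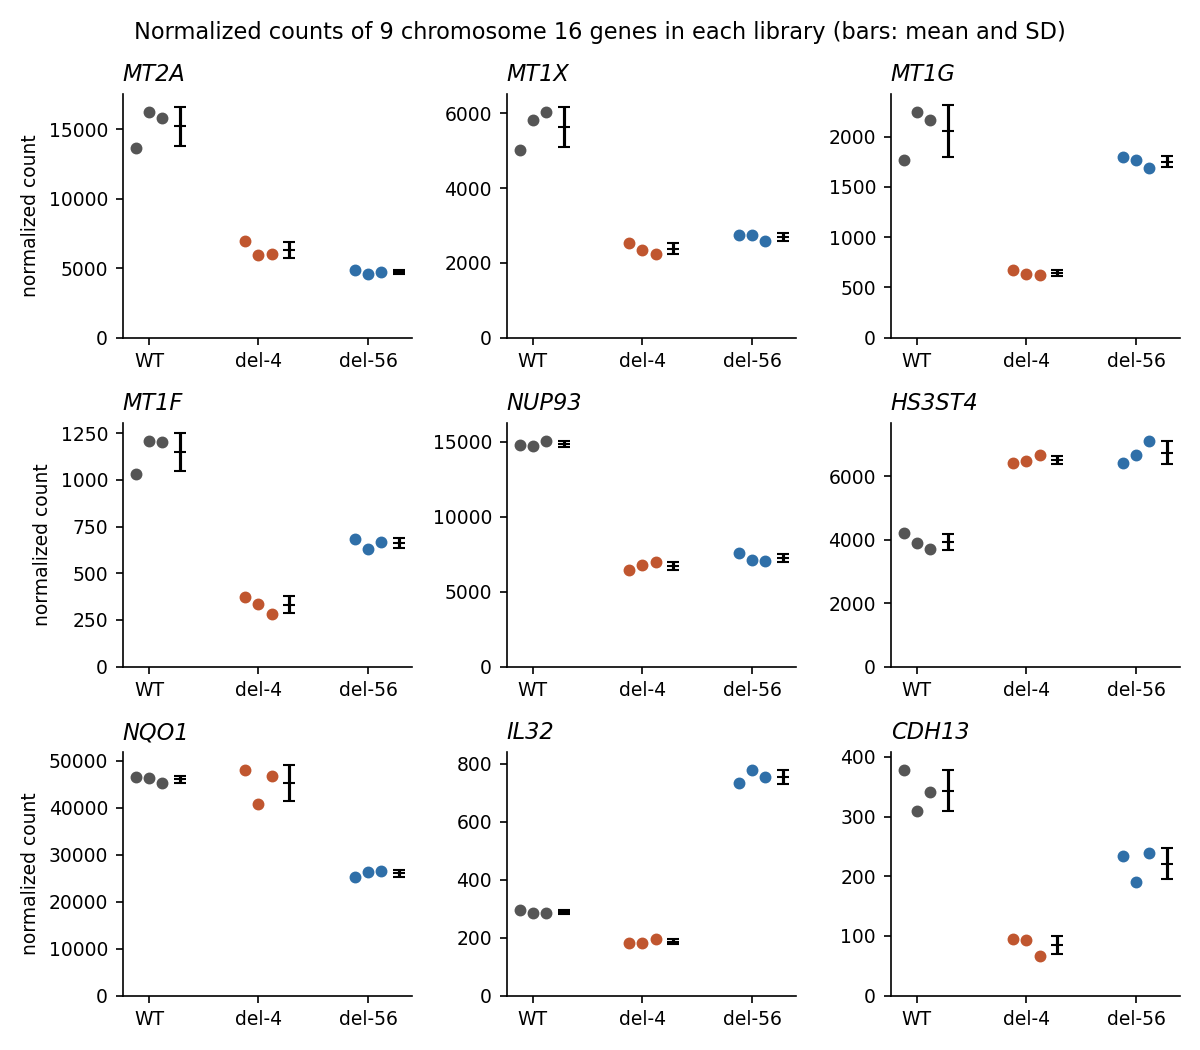
Normalized counts of 9 chromosome 16 genes in each library (points) with the mean and SD of each clone (bars); every y axis starts at 0. *MT2A*, *MT1X* and *NUP93* are low in both deletion clones, *MT1G*, *MT1F* and *CDH13* are lowest in del-4, *NQO1* is low in del-56 alone, *IL32* is high in del-56 and *HS3ST4* is high in both.

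Members with every deletion library above WT were few. By fold change alone, 83 members in del-4 and 104 in del-56 were above WT. All 6 deletion libraries exceeded all 3 WT libraries for 1.52% of members, against 15.8% of all genes. The 12 members with all 6 deletion libraries above all 3 WT libraries were *HBA2*, *HBA1*, *HS3ST4*, *SOCS1*, *SULT1A1*, *GPRC5B*, *MTSS2*, *GLIS2*, *HNRNPA1L3*, *ATXN2L*, *MMP15* and *CDIP1*. Of these, 9 lie on the p arm and 3 on the q arm, and only *HBA1* and *HBA2* are next to each other. Apart from these globins, no function list held more than 1 of them.

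*HS3ST4* (positions 25691959 to 26137685, plus strand) encodes a heparan sulfate sulfotransferase. It had 4219, 3895 and 3716 normalized counts in WT, 6423, 6496 and 6665 in del-4, with 6416, 6681 and 7132 in del-56, or 166% and 171% of the WT mean. *SULT1A1*, a phenol sulfotransferase gene with a close copy nearby, had 1538, 1687 and 1653 in WT, 2703, 2374 and 2800 in del-4, with 2572, 2462 and 2527 in del-56. *GPRC5B*, an orphan receptor gene, had 895, 1052 and 955 in WT, 1401, 1532 and 1491 in del-4, with 1532, 1455 and 1553 in del-56. In all of these the deletion clones overlapped each other and stood clear of WT, with log2 fold changes between 0.61 and 0.77.

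The alpha-globin genes *HBA2* and *HBA1*, in the outermost part of the p arm, were present in few reads. *HBA2* had 2.90, 2.90 and 0.943 normalized counts in WT, 6.72, 26.9 and 10.0 in del-4, with 12.4, 17.1 and 10.9 in del-56. Summed over libraries, *HBA2* was 6.47-fold higher in del-4 (95% interval 2.89 to 17.0, from 44 against 7 reads) and 6.08-fold higher in del-56 (2.69 to 16.1, from 39 against 7 reads). *HBA1* was 5.95-fold (2.91 to 13.7) and 4.97-fold (2.38 to 11.6) higher. These intervals cover counting error only, and both mates of a pair were counted. *HBA1* and *HBA2* share their coding sequence, so the same reads may stand behind both. The other globins, *HBM* (15.4 to 24.5 in WT) and *HBQ1* (85.9 to 146), overlapped between clones.

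The other genes of this kind were above WT by less, apart from *SOCS1*. *ATXN2L*, whose product takes part in stress granules, had 7591, 7793 and 8016 in WT, 8669, 9653 and 8484 in del-4, with 9815, 8450 and 8938 in del-56. *MTSS2*, an actin regulator gene, stood at 112% and 127% of the WT mean, *GLIS2*, a zinc finger transcription factor gene, at 115% and 121%, and *CDIP1* at 115% and 107%. *MMP15*, a membrane-bound matrix metalloproteinase gene, had 11940, 11970 and 12192 in WT, 12273, 12348 and 12550 in del-4, with 15372, 14356 and 14102 in del-56. Its del-4 value was 0.04 on the log2 scale and turned to -0.03 with rescaling to the same total, while that of del-56 was 0.28. *SOCS1*, an inhibitor of cytokine signalling, had 27.0 to 37.7 in WT, 38.2 to 59.5 in del-4 versus 42.2 to 93.5 in del-56. *HNRNPA1L3*, a retrocopy of *HNRNPA1*, had 1065 to 1243, 1247 to 1316 and 1376 to 1546, and its reads may belong to the parent gene. In del-4, *SOCS1*, *MMP15* and *HNRNPA1L3* were not called higher (adjusted p = 0.227, 0.240 and 0.233, limma).

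The genes furthest below WT were mostly low in level. *ITPRIPL2* had 93.7, 102 and 133 normalized counts in WT, 1.92, 0 and 2.01 in del-4, and 0 in all 3 del-56 libraries. It was 83.5-fold lower in del-4 (95% interval 32.3 to 308, from 4 against 344 reads) and at least 34.6-fold lower in del-56, where 0 reads were set to a floor of 3 reads per library. *CDH3*, the gene of P-cadherin, had 114, 143 and 117 in WT, 11.5, 10.96 and 6.03 in del-4, with 0, 6.02 and 0 in del-56. *MLKL*, the executor of necroptosis, had 108, 135 and 102 in WT, 11.5, 9.96 and 12.1 in del-4, with 0, 0 and 7.28 in del-56. In all of these the deletion libraries lay far below every WT library.

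Further genes of this kind were low throughout. *CNTNAP4* had 27.0 to 37.7 in WT and at most 5.72 in a deletion library, and the noncoding RNA gene that overlaps it had 30.9 to 46.4 in WT and 0 to 28.8 in the deletion clones. *CTRB1*, a chymotrypsinogen gene with a close copy beside it, had 26.4 to 36.7 in WT, 0 to 7.97 in del-4 versus 13.4 to 18.1 in del-56. *RGS11* stood at 43.8% and 23.1% of the WT mean, *ZDHHC1* at 28.8% and 35.4%, and *ZNF785* at 39.7% and 28.8%. Among well-expressed genes, *NUP93*, a scaffold nucleoporin gene on the q arm near the metallothioneins (positions 56730118 to 56850286), stood out with 14815, 14734 and 15092 in WT, 6446, 6756 and 6999 in del-4, with 7565, 7106 and 7049 in del-56.

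Single genes differed between the deletion clones far more than the chromosome did. *IL32*, a cytokine gene on the p arm, had 297, 285 and 286 normalized counts in WT, 182, 180 and 197 in del-4, with 732, 779 and 753 in del-56. It was below WT in del-4 and above it in del-56, and the log2 fold change of del-4 against del-56 was -2.01 (SE 0.097, adjusted p = 1.47e-05, limma). *NQO1*, a quinone reductase gene induced by oxidative stress, had 46625, 46344 and 45216 in WT, 48162, 40864 and 46812 in del-4, with 25203, 26314 and 26660 in del-56. The del-4 libraries surrounded WT and the del-56 libraries lay at 56.6% of its mean, a difference of 0.79 (SE 0.060, adjusted p = 0.000135, limma).

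Further members with a large difference included both low and moderately expressed genes. *PRSS22*, a serine protease gene, had 3.84, 12.9 and 4.02 in del-4 but 25.8, 58.2 and 55.8 in del-56, against 2.90 to 20.7 in WT (log2 -2.68, adjusted p = 0.0138, limma). *APOBR* had 21.9 to 26.1 in del-4 but 46.1 to 63.0 in del-56, against 19.3 to 41.5 in WT (-1.06, adjusted p = 0.033, limma). *SSTR5*, a somatostatin receptor gene, had 324, 304 and 257 in del-4 but 158, 88.4 and 147 in del-56, against 348 to 363 in WT (1.201, adjusted p = 0.0121, limma). *ARHGDIG* had 398, 217 and 335 in del-4 but 164, 137 and 107 in del-56, against 162 to 219 in WT (1.19, adjusted p = 0.0175, limma). The adjusted p of *PRSS22* and of *ARHGDIG* rose above 0.05 without del-4 replicate 1 or 3 or without del-56 replicate 2 or 3, that of *SSTR5* without del-4 replicate 1 or 2, and that of *APOBR* without any 1 of the 6 libraries.

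The cadherins of the q arm, a family of cell adhesion molecules, followed no common pattern. *CDH1*, the gene of E-cadherin, had 49895, 48152 and 47678 in WT, 38953, 39094 and 41766 in del-4, with 41978, 38130 and 39352 in del-56, or 82.2% and 82.0% of the WT mean. This was near the level of the chromosome. *CDH13* had 379, 310 and 341 in WT, 95.1, 92.6 and 67.3 in del-4, with 234, 191 and 239 in del-56, with del-4 the lower of the deletion clones (-1.38, SE 0.20, adjusted p = 0.00294, limma). *CDH8* had 106 to 141 in WT, 112 to 150 in del-4 versus 34.3 to 53.4 in del-56 (1.52, SE 0.24, adjusted p = 0.00507, limma). *CDH15* stood at 64.4% and 65.4% of WT. Of 6 measured cadherins, 4 (66.7%) were called lower for del-4 and 5 (83.3%) for del-56, against 66.4% and 64.0% of all members.

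Genes of mTOR, AKT and ERK signalling on chromosome 16 were all below WT. These kinases, adaptors and inhibitors join growth factor and amino acid signals to translation. Of the 7 measured, all were below WT in both clones, and 6 were called lower for del-4 and 7 for del-56, with medians of -0.26 and -0.30. Among all members 89.5% and 86.9% were below WT and 66.4% and 64.0% were called lower, with medians of -0.34 and -0.31, and the counts of this and the following lists are to be read against these. *MLST8*, a subunit of both mTOR complexes, had 13596, 14428 and 13529 in WT, 12330, 10777 and 11874 in del-4, with 9902, 9326 and 9405 in del-56. It was higher in del-4 than del-56 (0.29, SE 0.052, adjusted p = 0.0087, limma), but not at an adjusted p under 0.05 without del-4 replicate 3 or del-56 replicate 2 or 3. For the mLST8 protein, the study saw no major change by immunoblot in the deletion clones. *TELO2*, which helps to fold the mTOR kinase family, stood at 65.6% and 63.9% of WT. *TSC2*, the inhibitor of mTOR signalling, stood at 87.5% and 82.5%, *NPRL3*, of the amino acid sensing GATOR1 complex, at 76.6% and 78.0%, *PDPK1*, the kinase that activates AKT, at 80.2% and 81.3%, *EEF2K*, which blocks elongation, at 83.5% and 81.2%, and *MAPK3*, the gene of ERK1, at 90.9% and 81.1%. *PDPK1* has a close copy on the same arm, and its reads may be split.

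Of the translation machinery, 8 of 11 members (72.7%) were called lower in each clone, near the 66.4% and 64.0% of all members (medians -0.22 and -0.29). *RPS2*, the member with the highest normalized count, had 435856, 413063 and 407826 in WT, 445431, 400186 and 427263 in del-4, with 380394, 368705 and 383159 in del-56. The WT and del-4 libraries overlapped. Its del-4 value was 0.02 on the log2 scale, -0.05 with rescaling to the same total and -0.21 with quantile normalization. *RPL13* had 212163 to 228144 in WT, 164984 to 186984 in del-4 versus 181107 to 195116 in del-56. *RPS15A* stood at 93.1% and 91.5% of WT.

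Other lists whose members were below WT without exception in both clones were those of the ubiquitin and proteasome genes (12 of 12), the mitochondrial proteins (11 of 11), DNA repair (7 of 7) and vesicle traffic (11 of 11). In the first, *STUB1*, a ubiquitin ligase gene that works with chaperones, had 31516 to 32753 in WT, 21444 to 23492 in del-4 versus 19396 to 20927 in del-56, and *RNF40*, a ligase for histone H2B, stood at 71.9% and 73.4%. Among mitochondrial proteins *GOT2*, the aspartate aminotransferase of the malate-aspartate shuttle, had 25682 to 26300 in WT, 16640 to 17442 in del-4 versus 17117 to 17718 in del-56. In DNA repair, *RFWD3* had 6608 to 6628 in WT, 4395 to 4612 in del-4 versus 5157 to 5316 in del-56, and was lower in del-4 than del-56 (-0.21, adjusted p = 0.0052, limma). *NTHL1*, a base excision glycosylase gene, stood at 70.2% and 67.9%, and *FANCA* at 72.4% and 82.9%. In vesicle traffic, *VPS35* of the retromer stood at 87.6% and 88.4%, and *ATP6V0D1* of the proton pump at 97.8% and 92.0%.

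Regulators of transcription were mixed around the common level. Of 20 measured transcription factors and chromatin genes, 19 were below WT for del-4 and 18 for del-56, with medians of -0.30 and -0.28. *MAZ*, a zinc finger factor gene, had 92213, 91696 and 89887 in WT, 92397, 87094 and 85726 in del-4, with 75560, 73488 and 75718 in del-56. It differed between the deletion clones (0.24, SE 0.037, adjusted p = 0.00463, limma), and its del-4 value was -0.05 but -0.21 with quantile normalization. *CTCF*, the insulator protein gene, was close to WT, at 93.2% and 94.9%, and *ZFHX3* stood at 77.9% and 82.2%. Of 35 zinc finger genes, all were below WT for del-4 and 33 for del-56, with medians of -0.32 and -0.30. *GTF3C1* of the RNA polymerase III machinery did not follow, at 97.7% and 110%.

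Genes of cell division and of metabolism had their own exceptions. Of 12 genes of replication, mitosis and telomeres, 10 were called lower for del-4 and 9 for del-56. *PLK1*, the mitotic kinase gene, had 12217 to 12682 in WT, 9765 to 10288 in del-4 versus 11128 to 11930 in del-56, and was lower in del-4 than del-56 (-0.20, adjusted p = 0.00931, limma), though not at an adjusted p under 0.05 without del-4 replicate 1 or 3. *KIF22* stood at 78.2% and 78.6% of WT and *TERF2IP*, a telomere protein gene, at 77.0% and 79.8%. *CENPN*, a centromere protein gene, overlapped WT in both clones (14641 to 18568 in WT, 15999 to 17276 in del-4 versus 17125 to 19456 in del-56). Of 10 steroid, lipid and redox enzymes, 5 were called lower for del-4 and 7 for del-56. Of 11 membrane transporters, 8 and 7 were, and *ABCA3*, a lipid transporter gene, stood at 58.5% and 57.2%, *SLC5A2*, the glucose carrier SGLT2, at 66.7% and 66.8%, and *ABCC1*, a drug exporter gene, at 77.8% and 77.2%.

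The leukocyte genes and cytokines, like the globins, were called lower less often than the chromosome as a whole. Of 13 measured members, 8 were below WT for del-4 and 9 for del-56, and 3 (23.1%) and 1 (7.69%) were called lower. The median of this list was -0.29 in both clones, near that of the chromosome. Calls were rarer at low levels: in the lowest of the 4 level classes, 17.7% and 13.6% of members were called lower. Whether function plays a part was not tested. Of the 5 globins, 2 were below WT for del-4 and 3 for del-56, none was called lower, and 2 (40.0%) were called higher in each clone by limma. *CIITA*, the activator of HLA class II genes, had the highest normalized counts of the list, with 4604 to 4836 in WT, 3674 to 3999 in del-4 versus 3854 to 3962 in del-56, and *IL4R* stood at 78.2% and 88.1%. *NLRC5*, with 145 to 222 in WT, 231 to 247 in del-4 versus 177 to 233 in del-56, was above WT in del-4 without overlap.

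The genes of 2 proteins that the study's mass spectrometry listed as lower in both deletion clones were also below WT as RNA. These are *PDXDC1* and *NHERF2*, the latter listed there as SLC9A3R2. *PDXDC1*, a decarboxylase-like gene with a partial copy nearby, had 28234, 28583 and 27689 in WT, 20260, 20838 and 20591 in del-4, with 21144, 23102 and 22325 in del-56. *NHERF2*, a scaffold of membrane proteins, had 13261, 13696 and 14131 in WT, 9711, 10172 and 9168 in del-4, with 9529, 9201 and 9342 in del-56. They stood at 73.0% and 70.7% of WT in del-4 and at 78.8% and 68.3% in del-56.

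Subunits of complexes encoded on chromosome 16 were below WT, with 1 exception in each clone, and the pooled medians of their partners lay slightly above 0. Over 20 complexes, the 34 subunits on chromosome 16 had medians of -0.29 for del-4 and -0.31 for del-56, and 33 of 34 were below WT in each. The 371 measured partners elsewhere had medians of 0.06 and 0.03, and 135 and 164 of them were below WT. By complex, partner medians ran from 0.29 and 0.17 in the cytosolic ribosome, with 76 partners, to -0.20 and -0.23 in GINS. The 757 other members had medians of -0.35 and -0.31. Of the 34, 29 (85.3%) were called lower in each clone, against 66.4% and 64.0% of all members, and none higher. In the highest of the 4 level classes, 87.4% and 89.9% of members were called lower. Whether complex membership plays a part was not tested.

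**Figure D5:**
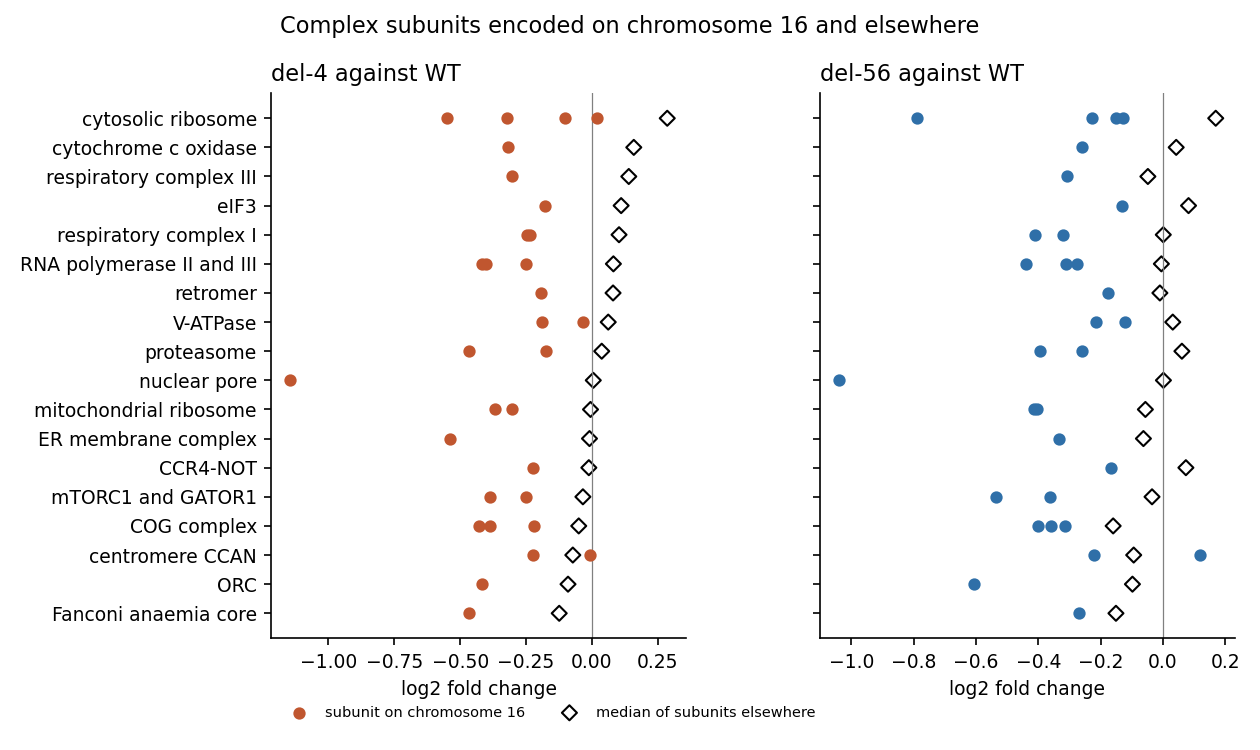
Log2 fold change against WT of each subunit encoded on chromosome 16 (points) and the median of the subunits encoded elsewhere (open diamonds), for the complexes with at least 3 measured partners. In both clones all points but that of *CENPN* lie to the left of the diamond of their complex, and *NUP93* of the nuclear pore lies furthest left.

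In the cytosolic ribosome, the 76 partners on other chromosomes had medians of 0.29 and 0.17, and the 4 chromosome 16 genes (*RPS2*, *RPS15A*, *RPL13* and the low paralog *RPL3L*) -0.21 and -0.19. Of these 76 partners, 66 were called higher in del-4 and 43 in del-56, where 18.9% and 18.2% of all genes were. The partners were not examined under other scalings. *RPL13* in del-4 moved from -0.32 to -0.54 with quantile normalization. In the proteasome the 37 partners had medians of 0.04 and 0.06, whereas *PSMD7* of the regulatory particle had 15282 to 16631 normalized counts in WT, 11198 to 11816 in del-4 versus 12577 to 13757 in del-56, and *PSMB10* of the immunoproteasome stood at 88.8% and 76.5% of WT. In the nuclear pore the 20 partners had a median of 0.005 and 0.001, and *NUP93* stood at 45.3% and 48.7%. In respiratory complex I, *NDUFAB1* stood at 84.4% and 80.02%, against partner medians of 0.10 and 0.00, and *COX4I1* of cytochrome c oxidase had 35168 to 38838 in WT, 27825 to 31074 in del-4 versus 29166 to 32181 in del-56. In RNA polymerase II and III, *POLR3K*, the most distal member of the p arm, had 6780 to 7128 in WT, 5220 to 5258 in del-4 versus 4852 to 5438 in del-56, and *POLR2C* stood at 84.2% and 82.6%. In the centromere complex, *CENPN* was the exception, at 99.02% and 108% of WT, while *CENPT* was below WT in both clones. The subunit above WT was *RPS2* in del-4 and *CENPN* in del-56.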

How the data were processed

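RNA was sequenced from 3 cultures of each LNCaP clone. Per the paper's methods and the labels, the authors aligned paired-end strand-specific reads to GRCh38 with STAR 2.71a and counted them on protein-coding genes of GENCODE 38 with BEDTools 2.27.1. Use of strand in counting is not given in the sources used here. The deposited signal values are read counts that the authors divided by 1 size factor per library, and 100% of them were whole multiples of 1 step (tolerance 1e-06), so that reads could be recovered. Of 19984 genes, 19923 matched GENCODE 44 by ID without version, and 61 did not.

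Each pair of clones was compared with limma 3.58.1 (R 4.3.3, variance trend) on log2 of the normalized count plus 1, over genes with a mean of at least 1, with 6 libraries per fit and Benjamini-Hochberg adjustment over all genes, two-sided. Fold changes of low genes are understated by the added 1. On simulated counts limma recovered the known fold changes. Named genes were the 12 highest with all 6 deletion libraries above WT, the 10 lowest by the mirrored rule, the 8 largest differences between the deletion clones (mean of at least 10 each), up to 4 abundant members of each function list, and complex subunits. Members and lists were chosen with earlier results of these data known. Alternatives were pseudocounts of 0.5 and 5, other filters, quantile normalization, rescaling to the same total, 1 fit of 9 libraries, a replicate block, edgeR 4.0.16, DESeq2 1.42.0 and leaving out each library. Medians and counts of chromosome segments under other scalings were added after seeing the data. Figures were drawn with Python 3.11.15.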

Additional observations from a re-analysis of the deposited data

Results flagged for a closer look

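Genes named in the report were set apart here where the values of the deletion clones differed from each other by the limma test of that difference, at an adjusted p under 0.05. Below del-56 in the del-4 libraries were *PRSS22* (log2 fold change -2.68), *IL32* (-2.01), *MT1G* (-1.45), *CDH13* (-1.38), *APOBR* (-1.06) and *MT1F* (-0.9999). By less, so were *MON1B* (-0.27), *ATMIN* (-0.24), *MMP15* (-0.24), *MPHOSPH6* (-0.23), *RFWD3* (-0.21), *PSMD7* (-0.21), *PLK1* (-0.20), *GCSH* (-0.20) and *MTSS2* (-0.17). Higher in del-4 were *CDH8* (1.52), *SSTR5* (1.201), *ARHGDIG* (1.19), *NQO1* (0.79), *MT2A* (0.41), *MLST8* (0.29), *MAZ* (0.24) and *STUB1* (0.16). Genes with opposite signs lie in the same metallothionein cluster, where *MT2A* is higher and *MT1G* and *MT1F* are lower in del-4. The test compares 1 clone with 1 clone.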

How the results depend on the processing

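The chromosome 16 median stayed below 0 in both clones under every alternative run. Rescaling to the same total per library gave -0.41 in del-4 and -0.34 in del-56, with the median of other genes at -0.06 and -0.02, and quantile normalization gave -0.29 in del-56. With 1 library left out the medians ran from -0.35 to -0.33 in del-4 and from -0.32 to -0.30 in del-56, and the members called lower from 458 to 500 and from 424 to 491, those called higher from 10 to 12 and from 13 to 18. Calls between the deletion clones depended more on the settings. The 82 members lower and 49 higher in del-4 became 50 and 28 with no filter, where more genes were tested, and 112 and 31 with rescaling to the same total, which moved the share of lower calls from 62.6% to 78.3%. With 1 library left out, the lower calls ran from 40 to 62 and the higher ones from 17 to 46, with fewer samples in the fit. edgeR called 103 lower and 56 higher, and DESeq2 107 and 60. With the replicate number as a block, 66 members were lower and 42 higher in del-4 than del-56, 512 were lower than WT in del-4 as against 461 in del-56. Libraries of the same number correlated between -0.031 and 0.024, so the numbers were not taken to pair them. Of the 23 named genes that differed between the deletion clones, 11 lost that call under at least 1 alternative: *APOBR*, *ARHGDIG*, *GCSH*, *MLST8*, *MPHOSPH6*, *MTSS2*, *PLK1*, *PRSS22*, *PSMD7*, *SSTR5* and *STUB1*. Against WT, 11 of 63 named calls in del-4 and 13 of 67 in del-56 were lost in this way. Among members with all deletion libraries above WT, these were *ATXN2L*, *GLIS2*, *HBA2* and *MTSS2* in del-4. In del-56 they were *ATXN2L*, *CDIP1*, *GLIS2*, *HBA1* and *HNRNPA1L3*. The del-56 call was lost in 13 settings for *CDIP1* and in 14 for *CTRB1*. No named gene with a call reversed its sign. Depth limited genes of a few counts, such as *HBA1*, *HBA2* and *ITPRIPL2*, for which intervals are wide.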
